A study of Mus musculus with 16 samples.

Results

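The 3' UTRs followed here are the longest of those that leukemia cells used at appreciable levels. They are the intervals of at least 3000 bases with a mean of at least 5 CPM (reads scaled to the depth of the libraries) that were also the most abundant interval of their gene, with 1 interval per gene. This rule took 986 intervals of 21177 genes. It used length and abundance only, so the loss of label described below was free to differ between these intervals and the rest. The cells were mouse leukemia cells from bone marrow on the C57BL/6 strain, either YBX1-/- or WT. The labels give neither an oncogene nor the animals' age, and do not say whether libraries came from separate cultures. Cells of both genotypes were kept in 50 µM 4-thiouridine (4sU) for 24 h, washed, and then chased in 10 mM uridine, and polyA RNA was collected at 0, 0.5, 1, 3, 6, 12, 18 and 24 h. There was 1 library for each genotype and time point, 16 in all, and no replicate at any of them.

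A 3' UTR is the untranslated end of an mRNA that follows the stop codon. It carries most of the known docking sites for microRNAs and for proteins that slow or speed decay, such as AU-rich element binders and Pumilio proteins, and much of the N6-methyladenosine (m6A) of an mRNA lies near its start. Long 3' UTRs are typical of regulators of transcription, signalling and ubiquitin transfer, whereas housekeeping transcripts such as those of ribosomal proteins tend to have short ones. YBX1 is a cold-shock domain protein that binds mRNA, and the study asked, by its title, how it bears on mRNA stability and m6A in myeloid leukemia. In SLAM-seq, 4sU in RNA is read as a T-to-C change, so the rate of T-to-C changes in an interval measures how much of its RNA was made during labelling. During the chase this rate drops as labelled RNA decays or as new RNA dilutes it, which cannot be told apart, so half-lives below are those of the label.

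Several elements are shown first because the later comparison of sequence with loss of label rests on them. All were read from the reference transcripts of GENCODE M21 on GRCm38, 5' to 3', with the matched letters in capitals. The AU-rich pentamer, the m6A context and AAUAAA, the letters of the polyadenylation signal, are shown in Cdk6, the most abundant of the very long intervals. The AAUAAA shown lies at base 641 of 10217 and is among 7 matches in that interval. Its use as a signal was not tested. A Pumilio motif is shown in Nptn, the gene whose loss of label differed between the genotypes, and the seed matches are shown in abundant members.
Cdk6, AUUUA (chr5:3521499-3521526, plus strand): tacatcttctATTTActctttggaaagc
Cdk6, GGACU (chr5:3524149-3524176, plus strand): accatttacaGGACTggctggagttaca
Cdk6, AAUAAA (chr5:3521422-3521449, plus strand): agcagtaaacAATAAAggtttagatgcc
Ctsb, let-7a seed match (chr14:63143742-63143769, plus strand): aactccctccCTACCTCgcatagccagt
Cdk6, miR-29a seed match (chr5:3529650-3529677, plus strand): cctgtcccttTGGTGCTtcccatctcct
Nptn, AUUUA (chr9:58651515-58651542, plus strand): tgacccacatATTTActatactaggttc
Nptn, UGUANAUA (chr9:58654735-58654762, plus strand): caaaccgcaaTGTACATAcagaggtcaa
Nptn, GGACU (chr9:58653882-58653909, plus strand): tcttaaggctGGACTggatagctatgac
The microRNAs of these seed matches, and miR-223 and miR-142a, whose matches are compared later, have the following mature sequences in RefSeq (GRCm38.p6), with the seed, bases 2 to 8, in capitals. miR-223 and miR-142a are microRNAs of blood cells, and let-7a and miR-29a are found in many tissues.
let-7a-5p: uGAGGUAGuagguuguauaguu
miR-223-3p: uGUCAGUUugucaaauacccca
miR-142a-3p: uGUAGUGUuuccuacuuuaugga
miR-29a-3p: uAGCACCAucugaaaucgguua

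The very long intervals had a median length of 4056.5 bases, with quartiles at 3459.25 and 5219.75. Of the 986, 472 were under 4000 bases and 289 reached 5000. The mean CPM over the libraries had a median of 12.8 (quartiles 8.02 and 22.6) and ranged between 5.04 and 1788. All 986 lay on protein-coding genes and overlapped an annotated 3' UTR of their own gene on GRCm38. Other features shared their ground in part: 133 overlapped coding sequence of another transcript of the gene, 173 an exon of another gene on the opposite strand and 38 an exon of another gene on the same strand, while 684 overlapped none of these. Myeloid identity was checked with 18 marker genes, all with a mean of at least 5 CPM (median 100.9 CPM). By contrast, 1 of 10 T and B cell, 0 of 9 erythroid and 0 of 8 stromal and endothelial markers reached 5 CPM, and 2 of 6 megakaryocyte markers did (Pf4 39.8 and Ppbp 28.1 CPM). The targeted gene could not be checked as a level, because CPM was deposited as a mean over the libraries. Its own short interval held label in both genotypes, 72.0% at 0 h and 3.08% at 24 h in YBX1-/- and 55.2% and 5.08% in WT.

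A test needed a rate above 0 in no fewer than 12 of 16 libraries, which kept 959 of the 986. Over the whole table it kept 7411 of 21177 genes. The filter takes in the late rates and removed a larger share of the other genes than of the very long intervals. Its part in the comparisons between length classes below was not tested. The depth of each library is unknown, and an exact 0 may mean no converted reads or no reads. Among the 959, the share at exactly 0 was 1.67% in YBX1-/- and 0% in WT at 0 h. Zeros reached 20.8% in YBX1-/- and 9.28% in WT at 12 h, and 11.7% in YBX1-/- and 27.1% in WT at 24 h. The YBX1-/- 0 h library stood apart in its early zeros and in a wider spread (quartiles 28.6% and 44.8%) than at 0.5 h (33.7% and 44.0%).

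Label in the very long intervals was high for the first hour and then dropped steeply. The median rate in YBX1-/- was 36.4%, 38.9%, 30.5%, 16.02%, 3.505%, 1.67%, 1.32% and 0.706% at 0, 0.5, 1, 3, 6, 12, 18 and 24 h. In WT it was 44.6%, 51.3%, 44.7%, 16.8%, 9.32%, 1.95%, 1.06% and 0.831%. YBX1-/- was lower than WT at each time point except 18 h, with the widest ratio at 6 h. This was not particular to long intervals: without centring on the library median, the median level difference (YBX1-/- minus WT) was -0.34 on the log2 scale over all 7411 tested genes and -0.34 over the very long ones. The decay and level differences below are relative to that shift; rates and half-lives are not, and carry it.

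**Figure D1:**
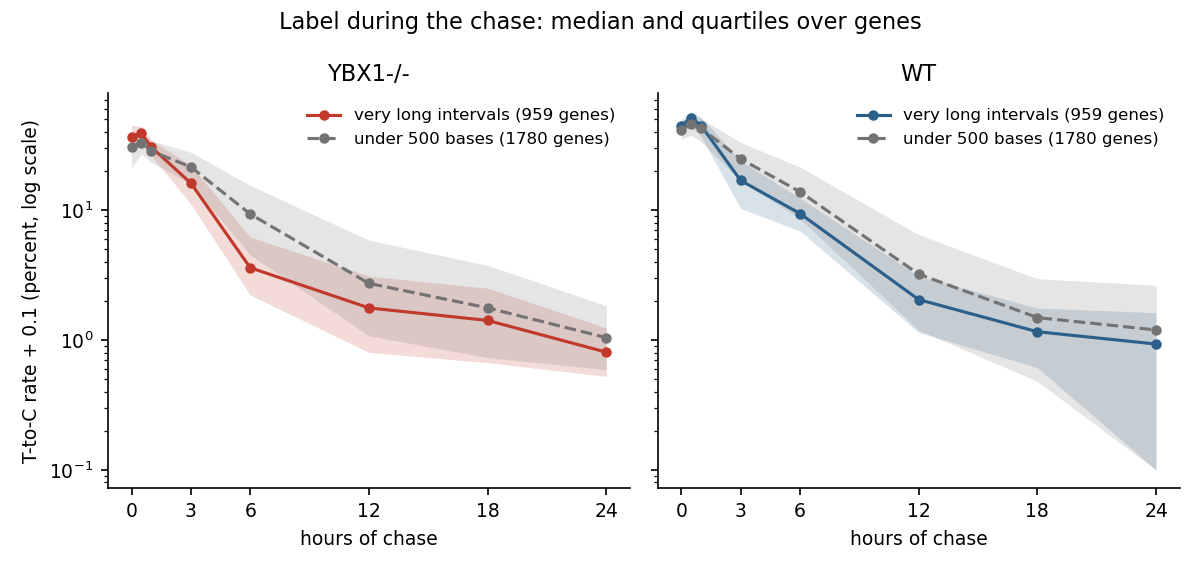
T-to-C rate plus 0.1 percentage points (log axis) against hours of chase in YBX1-/- (left) and WT (right); lines are medians over genes, bands the quartiles, 1 library per point. Very long intervals start at 36.4% in YBX1-/- and 44.6% in WT, slightly above the intervals under 500 bases, and lie below them from 3 h on.

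Compared with intervals under 500 bases that passed the filter, the very long ones that passed it started with more label and lost it sooner. At 0 h the very long intervals had medians of 36.4% in YBX1-/- and 44.6% in WT, against 30.6% in YBX1-/- and 41.7% in WT in the short ones. At 3 h the very long intervals had 16.02% in YBX1-/- and 16.8% in WT, against 21.4% in YBX1-/- and 24.7% in WT in the short ones. By 6 h they had 3.505% in YBX1-/- and 9.32% in WT, against 9.23% in YBX1-/- and 13.7% in WT. On the log2 scale, very long minus short medians were above 0 in all 6 libraries of 0 to 1 h and below 0 in all 10 libraries from 3 h on. The gap was -0.42 in YBX1-/- and -0.55 in WT at 3 h, and -1.40 in YBX1-/- and -0.56 in WT at 6 h, so the wider gap in YBX1-/- rests on its 6 h library.

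Slopes over the first 6 h give the same comparison in hours. The median slope of very long intervals was -0.56 log2 per h in YBX1-/- and -0.42 in WT, or label half-lives of 1.79 h and 2.35 h. The 6452 other tested genes had 2.20 h in YBX1-/- and 2.63 h in WT. Intervals of 1000 to under 3000 bases were close to the very long ones, at 1.88 h and 2.42 h, and intervals under 500 bases were far slower, at 3.69 h and 3.46 h. The quartiles of very long intervals (-0.68 and -0.42 in YBX1-/-, -0.50 and -0.35 in WT) overlapped those of the short ones (-0.47 and -0.13 in YBX1-/-, -0.41 and -0.17 in WT). A fit of an exponential with a constant floor to the medians gave 2.22 h in YBX1-/- (1.73 to 2.50 h when each time point was left out in turn) and 2.42 h in WT (1.67 to 2.95 h) for the very long intervals. The same fit gave 3.79 h (3.24 to 4.21 h) and 3.53 h (2.87 to 3.65 h) for intervals under 500 bases; the ranges of the classes did not overlap in YBX1-/- and overlapped slightly in WT. With both classes restricted to a mean of 5 to 25 CPM, a range chosen after seeing the data, this fit gave 2.14 h in YBX1-/- and 2.28 h in WT for very long intervals, against 3.46 h and 3.31 h for short ones.

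**Figure D2:**
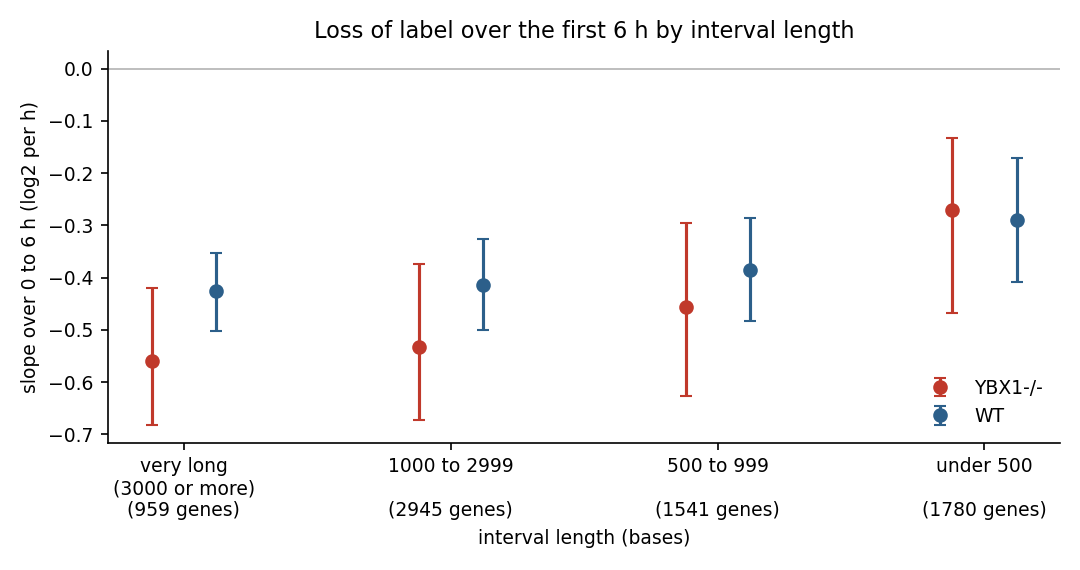
Slope of log2(rate + 0.1) over 0 to 6 h for 4 classes of interval length, YBX1-/- left of WT in each; points are medians and bars the quartiles over genes. Very long intervals have the steepest medians (-0.56 in YBX1-/-, -0.42 in WT) and intervals under 500 bases the flattest.

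Over the whole 24 h the difference between length classes was much smaller. Median half-lives were 4.05 h in YBX1-/- and 3.70 h in WT for very long intervals, against 4.38 h and 3.86 h for those under 500 bases. YBX1-/- thus had the shorter median half-life over 0 to 6 h and the longer one over 24 h in the very long class. The median slope of very long intervals was -0.25 in YBX1-/- and -0.27 in WT, and that of all 7411 tested genes was also -0.25 in YBX1-/- and -0.27 in WT. These comparisons of classes are descriptions with no test, since genes of a library are not replicates. Among the very long intervals themselves, half-lives hardly varied with length: from the shortest to the longest quartile group, they were, over 0 to 6 h, 1.81, 1.78, 1.79 and 1.77 h in YBX1-/- and 2.36, 2.36, 2.36 and 2.31 h in WT. Spearman's rho of slope with length was -0.016 in YBX1-/- and -0.026 in WT over 959 genes, which share the same libraries. Mean CPM had a larger rho with the slope, 0.22 in YBX1-/- and 0.33 in WT. Members in the top quartile group of CPM had half-lives of 2.097 h in YBX1-/- and 2.66 h in WT, against 1.72 h and 2.08 h in the bottom one.

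T content went with the starting rate, not with the speed of loss. T made up a median of 30.6% of the letters of very long intervals and 27.8% of those under 500 bases. From the lowest to the highest quartile group of T content among the very long ones, the median rate at 0 h was 32.1%, 35.4%, 37.5% and 40.1% in YBX1-/- and 41.2%, 43.5%, 45.6% and 48.0% in WT. Half-lives over 0 to 6 h stayed between 1.76 and 1.84 h in YBX1-/- and between 2.30 and 2.39 h in WT across these groups. The higher starting rate of very long against short intervals thus stands beside a higher T content, whose part in it was not tested.

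Cdk6, the G1 cyclin-dependent kinase, had by far the most abundant very long interval, 10217 bases on chromosome 5 (3520792 to 3531008) at a mean of 1788 CPM. Its rates were 35.1%, 36.2%, 30.4%, 18.1%, 3.76%, 0.815%, 0.793% and 0.669% from 0 to 24 h in YBX1-/-, against 48.3%, 48.2%, 42.0%, 21.3%, 10.7%, 1.88%, 0.915% and 0.692% in WT. In YBX1-/- it stayed near the class median up to 6 h. It was below that median at 12 h (0.815% against 1.67%) and 18 h (0.793% against 1.32%). In WT it was above the class median at 3 h (21.3% against 16.8%). Cdk6 was lower in YBX1-/- than in WT at each time point. Ctsb, a lysosomal cysteine protease at 731 CPM, kept its label longer. Ctsb rates were 34.6%, 37.8%, 34.3%, 34.8%, 21.6%, 9.41%, 4.97% and 2.11% in YBX1-/- and 42.3%, 54.2%, 51.0%, 33.8%, 28.4%, 10.5%, 4.60% and 1.63% in WT. At 6 h Ctsb held more label than the median very long interval had at 3 h, in both genotypes. Tacc1, a coiled-coil protein of centrosomes at 300 CPM, lay between these at 6 h, with 6.67% in YBX1-/- and 12.0% in WT. The Ctsb interval overlaps an exon of Fdft1 on the opposite strand, and that of Tacc1 overlaps Mir8108 on the same strand.

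The longest intervals differed widely among themselves. D10Wsu102e had the longest, 122583 bases on chromosome 10, followed by D1Ertd622e (39397 bases), Hnrnpr (19419), Aak1 (15925) and Slc8a1 (15586). Hnrnpr is an RNA-binding hnRNP protein, Aak1 a kinase of clathrin-mediated uptake and Slc8a1 a sodium-calcium exchanger. The rates of D10Wsu102e were 31.2%, 33.0%, 34.7%, 10.7%, 6.00%, 8.20%, 4.38% and 3.41% in YBX1-/- and 43.3%, 51.5%, 28.5%, 19.2%, 9.29%, 6.49%, 2.48% and 3.23% in WT. Its label half-life over 24 h was 7.62 h in YBX1-/- and 5.86 h in WT, above the upper quartile of its class, whereas Aak1 (2.45 h in YBX1-/-, 3.07 h in WT) and Slc8a1 (2.28 h and 3.45 h) were at the short end in YBX1-/-. Both of these were listed at 0 at 12, 18 and 24 h in YBX1-/-. The intervals of D10Wsu102e, Hnrnpr and Slc8a1 overlap coding sequence of their own gene or an exon of another gene.

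Krr1, a nucleolar protein of small ribosomal subunit assembly and the fifth most abundant at 296 CPM, carried little label at any time. Its rates stayed between 1.87% and 5.88% in YBX1-/- over the first 6 h and between 2.49% and 6.92% in WT. Its interval overlaps an exon of Glipr1 on the opposite strand, and this proved to be a common feature of weakly labelled intervals. Taking the median of 0, 0.5 and 1 h as the early rate, the very long intervals had a median early rate of 35.2% in YBX1-/- (quartiles 30.4% and 40.4%) and 46.8% in WT (41.5% and 51.9%). The early rate was under 20% in 44 of 959 in YBX1-/-, of which 39 overlapped an exon of another gene, and in 33 in WT, of which 31 did. The 194 tested intervals with such an overlap thus held nearly all of the low rates.

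**Figure D3:**
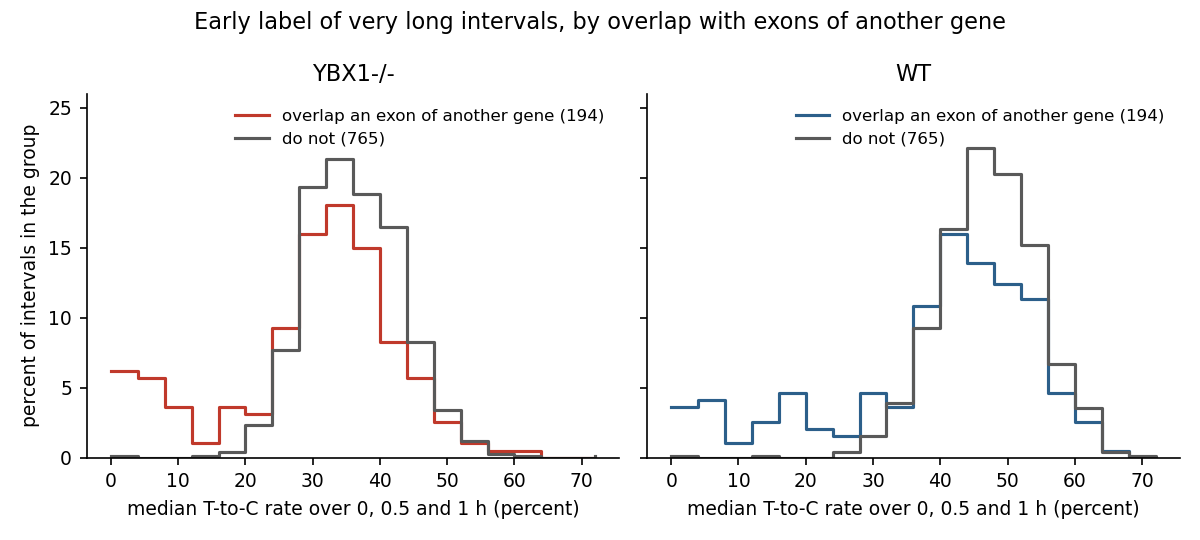
Distribution of the early T-to-C rate (median over 0, 0.5 and 1 h, percent) in YBX1-/- (left) and WT (right), for 194 very long intervals that overlap an exon of another gene and 765 that do not, as a percent of each group. Both groups peak near the medians of 35.2% in YBX1-/- and 46.8% in WT, and early rates under 20% come almost entirely from the overlapping group.

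Among those with the lowest early rate in WT were B3gat2, a glucuronyltransferase opposite Smap1, and Hdgfl3 opposite Tm6sf1, with medians of 1.59% and 0.693% in YBX1-/- and 0.403% and 1.18% in WT. Styx, a catalytically inactive phosphatase with an interval of 11922 bases opposite Gnpnat1, had 1.15% in YBX1-/- and 4.06% in WT. Rfc2, a clamp loader subunit opposite Lat2, had 10.8% in YBX1-/- and 4.04% in WT. These genes were chosen after their values were seen. Gsdme, the pore-forming gasdermin E, was an exception, with no other gene annotated across its 3142 bases. Its rates were 0.821%, 0.439%, 0.267%, 0.398%, 0.489%, 0.218%, 0.337% and 0.345% in YBX1-/- and 0.340%, 1.28%, 0.520%, 0.411%, 0.318%, 0.2003%, 0.427% and 0.404% in WT, at a mean of 114 CPM. It stayed at or under 1.28% throughout in both genotypes. The labels do not say whether reads were counted by strand, so reads of the overlapping intervals cannot be assigned with certainty to either gene.

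Loss of label over 24 h passed the test in most very long intervals of both genotypes. With limma's moderated fit and Benjamini-Hochberg adjustment over all 7411 genes, label fell in 903 of 959 in YBX1-/- (94.2%) and in 934 of 959 in WT (97.4%). The background over all tested genes was 91.5% in YBX1-/- and 95.2% in WT, close to these shares. Tested very long intervals had a median of 13.1 CPM, against 10.4 CPM over all tested genes. The part of abundance in the shares was not tested. Without the intervals that overlap their own coding sequence or another gene, 642 of 669 fell in YBX1-/- and 665 of 669 in WT. Among those that fell, the median half-life was 3.98 h in YBX1-/- (quartiles 3.46 and 4.50 h) and 3.68 h in WT (3.09 and 4.13 h). One rose in WT, B3gat2 (slope 0.13 log2 per h, limma adjusted p = 0.046), beside a background of 0.0135%, but all of its WT rates lay between 0% and 2.78% and the interval is one of those shared with another gene.

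The shortest half-lives over 24 h in YBX1-/- were those of Colec12, a scavenger receptor (2.13 h), Slc8a1 (2.28 h), Mob1b, a co-activator of LATS kinases (2.32 h), Maf, a bZIP transcription factor (2.37 h), and Ncoa2, a nuclear receptor co-activator (2.40 h). In WT they were those of Aen, an apoptosis-enhancing nuclease (2.21 h), Kif13b, a kinesin (2.26 h), Pofut1, which adds O-fucose to Notch (2.27 h), and the ubiquitin ligase adaptors Fbxw8 (2.31 h) and Fem1a (2.31 h). All 5 in each list were at 0 in at least 2 of the libraries of 12 to 24 h of that genotype, so these values depend on the 0.1 percentage points added before taking logs. The intervals of Slc8a1, Maf and Fbxw8 also overlap coding sequence of their own gene or an exon of another gene. Aen, for example, had rates of 39.5%, 45.3%, 32.0%, 14.4%, 1.07%, 1.14%, 1.63% and 0% in YBX1-/- and 46.8%, 45.1%, 54.1%, 34.0%, 9.47%, 0%, 0% and 0% in WT. Up to 6 h Aen held less label in YBX1-/- than in WT at each time point except 0.5 h, where they were alike.

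Among intervals whose label fell past the threshold, the longest half-lives in YBX1-/- belonged, among those named here, to Pcif1, the cap-adjacent m6Am methyltransferase (10.9 h), Klhl2, a cullin-3 ligase adaptor (10.6 h), the ribosomal protein gene Rps20 (10.3 h) and Nucb1, a calcium-binding Golgi protein (7.89 h). In WT they belonged to Lcorl, a nuclear corepressor-like protein (10.2 h), Taf10, a TFIID subunit (8.75 h), Cyld, a deubiquitinase that restrains NF-kB signalling (8.49 h), and Vps37a, an ESCRT-I subunit (8.39 h). Cyld and Vps37a lie on chromosome 8. Median WT rates of members there were 2.33% at 12 h and 1.35% at 18 h, against 1.93% and 1.04% on the other chromosomes. The part of this in the 2 half-lives was not tested. The call that label fell was lost for Taf10 in 4 of 19 alternatives, for Vps37a in 3 of 18 and for Lcorl in 1 of 19 in WT. In YBX1-/- it was lost for Rps20 in 2 of 19 alternatives and for Pcif1, Klhl2 and Nucb1 in 1 each. The intervals of Pcif1, Klhl2, Lcorl and Taf10 overlap coding sequence of their own gene or an exon of another gene. Taf10 was weakly labelled from the start, with 7.80% in YBX1-/- and 9.28% in WT at 0 h, against class medians of 36.4% and 44.6%.

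Between the genotypes, the speed of loss differed past the threshold for a single very long interval. The decay rate difference is the slope in YBX1-/- minus that in WT, relative to the library medians, so that a positive value means slower loss in YBX1-/-. Nptn was the only one called slower in YBX1-/- (0.167 log2 per h, SE 0.017, limma adjusted p = 0.0173) and none was called faster, beside backgrounds of 0.0405% slower and 0.0675% faster over all tested genes. At an unadjusted p under 0.05 there were 121 of 959 (12.6%), close to the background of 12.5%. Of the 121, 75 were above 0 and 46 below, and late zeros were common in both. Of the 75, 55 were at 0 in WT at 18 or 24 h, against 342 of all 959. Of the 46, 33 were at 0 in YBX1-/- at 18 or 24 h, against 272 of all 959. The median decay rate difference of the very long intervals was 0.00 log2 per h, as over all tested genes, with quartiles at -0.04 and 0.05. In simulated data this test recovered 47 of 100 genes with an added difference of 0.2 log2 per h, so real differences can be missed.

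Nptn encodes neuroplastin, an immunoglobulin-family membrane protein that partners with plasma membrane calcium pumps. Its interval spans 3890 bases on chromosome 9 (58651319 to 58655208, plus strand) at a mean of 17.4 CPM, and overlaps an exon of Rec114 on the opposite strand. Rates were 63.6%, 55.9%, 54.3%, 50.7%, 26.1%, 9.38%, 11.5% and 1.43% from 0 to 24 h in YBX1-/-, against 65.1%, 68.2%, 59.8%, 33.8%, 24.8%, 3.39%, 0.699% and 0% in WT. YBX1-/- was lower than WT up to 1 h and higher at each of the 5 later time points. Half-lives over 24 h were 5.02 h in YBX1-/- and 2.58 h in WT. The early rate of Nptn was among the 10 highest of all tested very long intervals in WT, 65.1%, and its T content was 34.1%, in the top quartile group. The call was kept in 7 of 20 alternative analyses and lost in 13, with adjusted p between 0.00665 and 0.965; the difference stayed positive in all 20, between 0.10 and 0.26.

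The next genes in either direction did not pass. Klhl2 came closest on the slower side, with rates of 28.6%, 46.3%, 41.8%, 16.7%, 5.88%, 16.7%, 8.33% and 6.87% in YBX1-/- and 61.2%, 60.0%, 46.4%, 25.9%, 9.27%, 2.28%, 1.37% and 0% in WT (difference 0.24, SE 0.04, limma adjusted p = 0.055). It was lower in YBX1-/- up to 6 h and higher from 12 h on. Senp5, a SUMO protease, Samm50, which assembles mitochondrial outer membrane proteins, and Ccdc82 had differences of 0.15, 0.24 and 0.19 with adjusted p of 0.107, 0.107 and 0.115 in limma. The intervals of Klhl2 and Senp5 overlap coding sequence of their own gene or an exon of another gene.

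On the faster side, Rab8a, a small GTPase of membrane traffic, had a difference of -0.13 (SE 0.02, limma adjusted p = 0.075). Its rates were 24.6%, 31.7%, 27.1%, 19.3%, 3.24%, 0.975%, 1.00% and 0.462% in YBX1-/- and 39.6%, 42.1%, 45.4%, 21.0%, 13.9%, 4.65%, 8.59% and 3.87% in WT. Rab8a had less label in YBX1-/- at all 8 time points, with none of its rates at 0. Ralgapb, the scaffold subunit of a Ral GTPase-activating complex, Cyld, N4bp2 and Mob1b had differences of -0.24, -0.15, -0.28 and -0.25 with adjusted p between 0.080 and 0.129. N4bp2 had 40.0%, 32.6%, 32.4%, 10.7%, 1.28%, 0%, 0% and 0% in YBX1-/- and 47.9%, 33.3%, 32.3%, 20.1%, 11.7%, 7.03%, 4.55% and 3.33% in WT. The genotypes of N4bp2 were alike at 0.5 and 1 h and separated from 3 h on. Klhl2, Rab8a and Cyld are 3 of the 46 tested very long intervals on chromosome 8, where the median level difference was -0.10, against 0.01 on the other chromosomes; its part in their values was not tested.

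**Figure D4:**
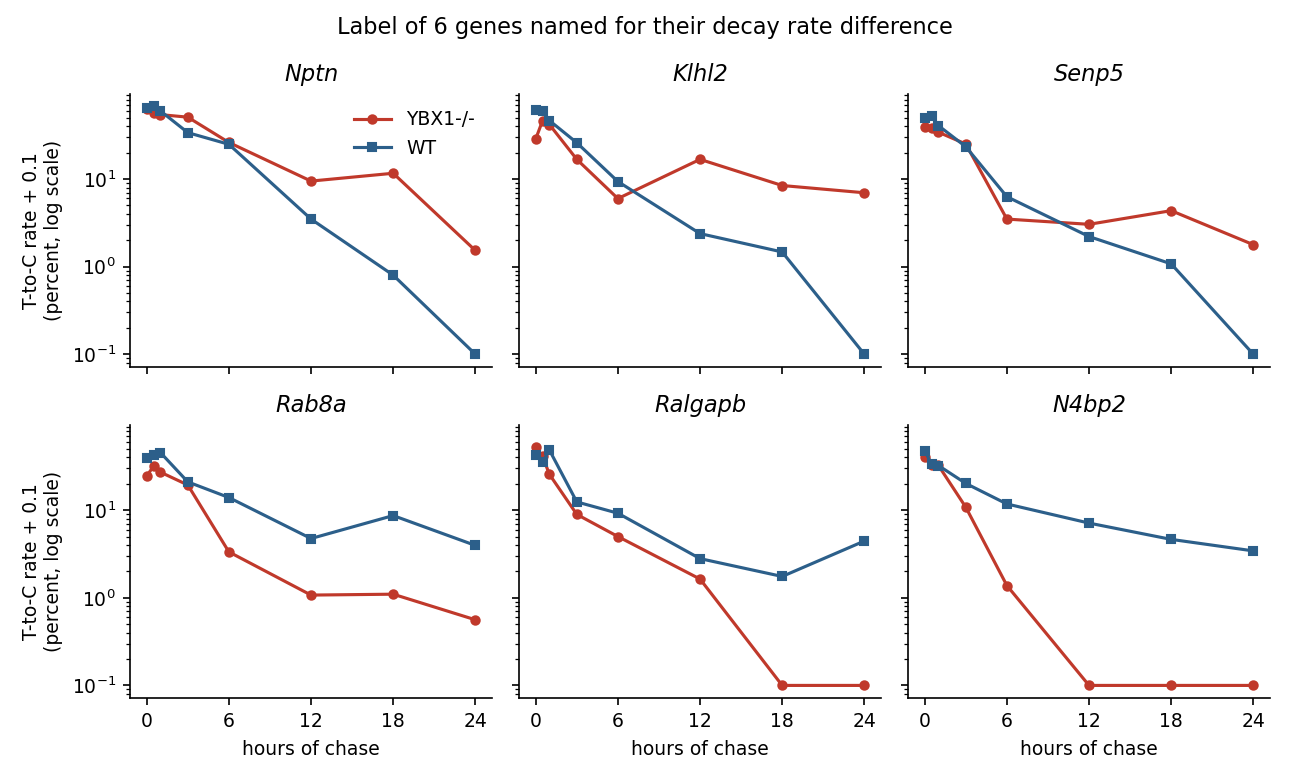
T-to-C rate plus 0.1 percentage points (log axis) against hours of chase for 3 genes with slower loss in YBX1-/- (top) and 3 with faster loss (bottom), 1 library per point. Only the Nptn difference of 0.167 log2 per h passed the threshold; points at 0.1 are rates of exactly 0.

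The 8 time points together showed no called difference in the level of label between genotypes. The level difference (YBX1-/- minus WT, log2, relative to the library medians) passed the limma threshold in 0 of 959 very long intervals, beside a background of 0%, and 33 had an unadjusted p under 0.05 (3.44%), under the background of 5.6%. The smallest limma adjusted p was 0.779. In simulated data this test recovered 52 of 100 genes with an added log2 difference of 2, so real differences can be missed. The median was 0.01, with quartiles at -0.30 and 0.35, against 0.01 over all tested genes (-0.34 and 0.39). The intervals with the smallest p above 0 were those of Cd93, a C-type lectin-domain receptor of myeloid and endothelial cells (0.67, SE 0.20), Nptn (1.53, SE 0.48), Uck2, a uridine-cytidine kinase (0.55, SE 0.17), Nvl, a ribosome assembly ATPase (1.27, SE 0.43), and Clcn5, an endosomal chloride-proton exchanger (1.21, SE 0.42). Cd93 rates were 61.6%, 49.9%, 47.1%, 38.7%, 14.3%, 2.57%, 3.85% and 0.909% in YBX1-/- and 54.5%, 48.6%, 43.9%, 27.4%, 15.96%, 1.96%, 0.971% and 1.14% in WT. Cd93 was higher in YBX1-/- at 6 of 8 time points although most genes were lower there. Those below 0 were Zfp319 (-1.81, SE 0.62), Rab8a (-1.15, SE 0.41), the ETS factor Gabpa (-0.71, SE 0.26), N4bp2 (-2.29, SE 0.88) and the ceramide synthase Cers6 (-1.50, SE 0.59). Zfp319 and Rab8a lie on chromosome 8. The intervals of Nptn, Nvl and Zfp319 overlap coding sequence of their own gene or an exon of another gene.

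A window of 0 to 12 h gave more calls. Over it, 3 very long intervals were called slower in YBX1-/- (0.313%) beside a background of 1.82%, and 14 faster (1.46%) beside a background of 1.79%, so both shares were below those of all tested genes. Of the 14, 13 were listed at 0 in YBX1-/- at 12 h and none in WT, whereas 199 of the 959 tested were at 0 in that library. Over the full 24 h the difference was below 0 in 9 of the 14 and above 0 in 5.

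By role, the very long intervals of transcription regulators and zinc finger genes were among the first to lose label, and those of RNA regulators and membrane traffic lost it later. Role lists cover 383 of the 986, and 603 are on none; lists overlap for genes such as Cdk6. Over 0 to 6 h the 58 tested transcription and chromatin regulators had median half-lives of 1.56 h in YBX1-/- and 2.14 h in WT, and the 24 zinc finger genes 1.56 h and 2.08 h. The 44 genes of RNA regulation, silencing and decay had 2.03 h and 2.52 h, and the 36 of membrane trafficking 2.003 h and 2.52 h. All tested genes had 2.12 h in YBX1-/- and 2.57 h in WT. The order of the genotypes turned round over 0 to 24 h, where all 11 lists had the longer median half-life in YBX1-/-. Among them were transcription regulators (3.86 h in YBX1-/-, 3.83 h in WT) and RNA regulation (4.19 h and 3.63 h). All tested genes turned round in the same way, to 4.06 h in YBX1-/- and 3.72 h in WT. The lists share the same libraries, so they do not repeat one another. The other tested genes of these lists have shorter or less abundant intervals. Over 0 to 6 h they gave 1.63 h and 2.23 h for transcription regulators and 1.59 h and 2.14 h for zinc finger genes. Membrane trafficking had 2.12 h and 2.53 h, with RNA regulation between them at 1.81 h and 2.35 h.

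**Figure D5:**
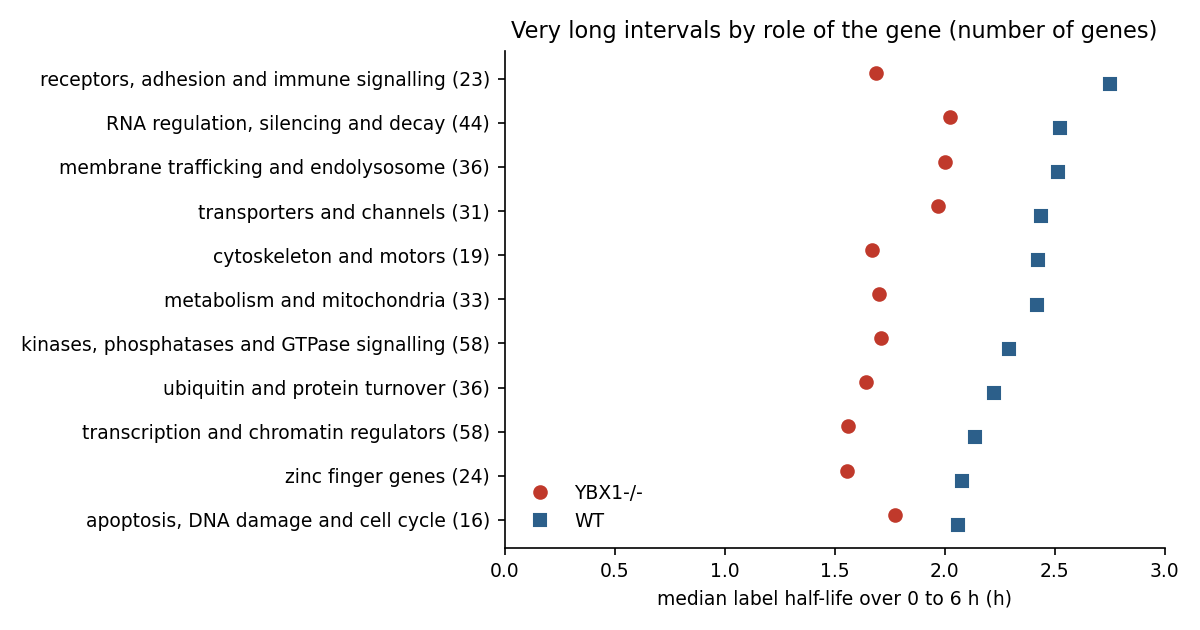
Median label half-life over 0 to 6 h (h) of very long intervals by role list, in YBX1-/- (circles) and WT (squares), with the number of tested genes in brackets. Each list has a shorter median in YBX1-/-; transcription regulators have 1.56 h in YBX1-/- and 2.14 h in WT, RNA regulators 2.03 h and 2.52 h. Over 0 to 24 h, not plotted, each list has the longer median in YBX1-/-. All tested genes have the same order in each window, and the lists share the same libraries.

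In the transcription list, label fell in 57 of 58 in YBX1-/- and 58 of 58 in WT. Its most abundant members were Klf13, a Krüppel-like factor (155 CPM), Hipk1, a nuclear kinase (67.1 CPM), and Zeb2, a repressor of E-cadherin (65.2 CPM). Their rates at 6 h were 2.89%, 3.27% and 3.77% in YBX1-/- and 6.41%, 10.8% and 10.2% in WT. Level differences of this list had a median of -0.22, with 21 of 58 above 0, and those of the 24 zinc finger genes a median of -0.23, with 9 above 0. Over all tested very long intervals, 490 of 959 were above 0. The other tested genes of these lists leaned the same way, so this was not particular to very long intervals. Their medians were -0.11 for transcription regulators, with 32 of 81 above 0, and -0.16 for zinc finger genes, with 37 of 89 above 0. The most abundant zinc finger members, Zfp706, Zfp120 and Zbtb7a, had 6.47%, 2.0% and 2.62% at 6 h in YBX1-/- and 12.4%, 4.31% and 5.17% in WT.

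In the list of RNA regulation, label fell in 41 of 44 in YBX1-/- and 44 of 44 in WT. Here level differences had a median of 0.14, with 33 of 44 above 0, and none passed the test. The other tested genes of this list had a median of 0.03, with 37 of 69 above 0. Its leading members were Mbnl1, a splicing regulator (162 CPM), Eif4g2, a translation initiation factor of the eIF4G family (151 CPM), and Mtdh (95.4 CPM). At 3 h they had 29.8%, 29.5% and 28.8% in YBX1-/- and 27.4%, 36.1% and 22.1% in WT, above the class medians of 16.02% and 16.8%. They were named for their abundance, and the top quartile group of CPM had medians of 20.4% in YBX1-/- and 22.1% in WT at 3 h. Mtdh was alike with that group in WT. Among ubiquitin genes, label fell in 35 of 36 in YBX1-/- and 36 of 36 in WT, with half-lives over 0 to 6 h of 1.64 h and 2.22 h. Cbl, a ubiquitin ligase that downregulates receptor tyrosine kinases, Usp14, a proteasome-bound deubiquitinase, and Dcaf7 had 1.43%, 5.44% and 5.37% at 6 h in YBX1-/- and 11.8%, 6.28% and 10.4% in WT.

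Kinases, phosphatases and GTPases formed the other large group, in which 52 of 58 fell in YBX1-/- and 57 of 58 in WT. Nras, a RAS GTPase often mutated in myeloid leukemia, had 37.8%, 39.9%, 32.3%, 24.4%, 7.69%, 1.62%, 1.47% and 0.648% in YBX1-/- and 42.3%, 54.8%, 52.8%, 25.6%, 14.7%, 2.52%, 1.18% and 0.782% in WT. Nras was lower in YBX1-/- than in WT at 7 of 8 time points, and its decay rate difference was -0.01 (SE 0.02). Among genes of the cell cycle and apoptosis, 14 of 16 fell in YBX1-/- and 15 of 16 in WT. Cdkn1b, the CDK inhibitor p27, fell early, to 18.6% at 1 h and 6.99% at 3 h in YBX1-/-, against 30.6% and 15.8% in WT. Btg1, an antiproliferative cofactor of mRNA deadenylation, had 12.0% at 3 h in YBX1-/- and 8.99% in WT.

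Surface and membrane genes were less uniform. Receptors, adhesion and immune signalling genes had the longest median half-life over 0 to 6 h in WT of the 11 lists, 2.75 h, but 1.69 h in YBX1-/-. Over 0 to 24 h this list had 4.10 h in YBX1-/- and 3.38 h in WT, and 23 of 23 fell in both genotypes. Their most abundant members were Cd47, the "don't eat me" ligand (206 CPM), Clec5a, a myeloid lectin receptor (95.6 CPM), and Cd33, a myeloid sialic acid receptor (89.0 CPM). At 6 h they had 2.95%, 2.75% and 6.51% in YBX1-/- and 8.81%, 10.7% and 11.7% in WT. In membrane trafficking, 35 of 36 fell in YBX1-/- and 36 of 36 in WT. Arl8b, which moves lysosomes, Vps4b, the ESCRT ATPase, and Rab8b had 29.9%, 21.8% and 17.1% at 3 h in YBX1-/- and 20.9%, 29.0% and 18.5% in WT.

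Transporters fell in 31 of 31 in both genotypes, among them Slc6a6, the taurine transporter, Atp2b1, a plasma membrane calcium pump, and Kctd12, with 6.37%, 2.67% and 5.73% at 6 h in YBX1-/- and 11.1%, 9.91% and 15.4% in WT. Metabolic and mitochondrial genes fell in 33 of 33 in both, led by the superoxide dismutase Sod2, the glutathione synthesis subunit Gclm and the import channel subunit Timm17a. Sod2 had 11.9% at 6 h in YBX1-/- and 17.6% in WT, well above the medians of 3.505% and 9.32%. The top quartile group of CPM, to which Sod2 belongs, had medians of 4.96% and 10.9%. Cytoskeletal genes fell in 18 of 19 in both; Mapre1, a microtubule end-binding protein, had 9.54% at 6 h in YBX1-/- and 16.5% in WT, Akap13 3.11% and 8.17%, and Wasf2 3.97% and 10.0%. No list held a call of the decay rate difference or of the level difference among its very long intervals.

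Over their whole length, very long intervals more often held each element, but by 500-base window some elements were more frequent in them and others less. Shares of non-overlapping 500-base windows that held each element, on the transcript strand, were compared between the 984 members with a sequence and 4660 other tested intervals of at least 500 bases. Only full windows were counted, so the remainder of an interval was left out. AUUUA was in 54.3% of windows of very long intervals and 50.9% of the others, and the nonamer UUAUUUAUU, which contains it, in 2.08% and 2.41%. The Pumilio motif UGUANAUA was in 9.48% and 9.40%, and AAUAAA in 26.8% and 26.9%. Counted per kilobase of whole intervals, both were less frequent in the very long ones. AAUAAA had 0.86 matches per kilobase in very long intervals and 1.14 in the others, and UGUANAUA 0.230 and 0.243. GGACU, the favoured context of m6A, was in 35.2% and 38.4%. Counted over the whole interval, AUUUA was in 98.5% of very long and 79.5% of the other intervals, GGACU in 96.1% and 71.8%, and UGUANAUA in 58.1% and 27.6%. Cdk6 held 15 AUUUA, 7 GGACU and no UGUANAUA; Nptn held 9 AUUUA, 2 GGACU and 1 UGUANAUA.

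Seed matches differed in either direction in the same comparison. The shares furthest above those of the other intervals were for miR-26a, 4.17% of windows in very long intervals and 3.50% in the others, miR-21a, 2.89% and 2.32%, and miR-155, 3.53% and 2.96%, while miR-16 was lower, at 9.001% and 9.72%. For let-7a the window shares were 3.15% in very long intervals and 3.50% in the others, for miR-223 3.28% and 3.09%, for miR-142a 2.31% and 2.26%, for miR-29a 5.06% and 5.53%, and for miR-17 5.31% and 5.05%. None of the 17 elements searched, 12 of them seed matches with no seed in common, correlated with the slope over 0 to 6 h among the very long intervals with a rho of 0.1 or more in size in either genotype. The largest were miR-29a (rho -0.090 in YBX1-/- and -0.078 in WT) and UGUANAUA (-0.084 and -0.063). For GGACU, half-lives from the lowest to the highest quartile group of matches per kilobase were 1.71, 1.83, 1.76 and 1.81 h in YBX1-/- and 2.29, 2.43, 2.31 and 2.35 h in WT. The median decay rate difference was 0.01 in the lowest GGACU group and 0.00 in the highest. A match is a description of the letters and not of binding or methylation.

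Of the 986 genes with a very long interval, 468 had another deposited interval that did not overlap it. Only in 38 of these did the other interval reach 5 CPM and a rate above 0 in 12 libraries. The other interval was higher in 23 of 38 at 6 h in YBX1-/- and in 17 of 38 in WT, so neither interval kept its label longer as a rule. Serbp1, an mRNA-binding protein named here after its values were seen, had a second interval of 178 bases with 12.9% at 24 h in YBX1-/- and 15.4% in WT, 11.5 and 13.9 percentage points above its very long one. Cd47 had one of 3 bases at 22.8 CPM, too short for a rate to rest on its own letters.

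Just inside the length limit lay Tbc1d2b (3000 bases) and Mier1 (3003 bases), and just outside it Atxn7l3b and Syk (2997 bases), the spleen tyrosine kinase. Their rates at 6 h were 1.56% and 1.43% inside and 2.39% and 3.04% outside in YBX1-/-, against 3.88%, 9.44%, 6.00% and 4.27% in WT. Just inside the abundance limit were Hsd17b7 (5.04 CPM) and Golga3 (5.09 CPM), and just outside Btbd9 and Rfx5 (both 4.99 CPM). Hsd17b7 and Golga3 had 6.52% and 0% at 6 h in YBX1-/- and 8.79% and 5.49% in WT, and Btbd9 and Rfx5 had 3.88% and 1.04% in YBX1-/- and 9.09% and 11.8% in WT.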

How the data were processed

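Members, gene lists and tests were chosen with earlier results of these data known. The deposited table gives, per the file headers, the T-to-C rate of each 3' UTR interval and library as a fraction, shown here as percent; its denominator, reads or covered Ts, is not stated there. Mean CPM, T content and the coverage signal on Ts were deposited by the authors as means over libraries, so depth per library is unknown and no interval on a rate could be computed. Per the submitters' processing notes, CASAVA and HISAT2 2.1.0 were used, with GRCh38 named as build although the organism is mouse; the intervals' T counts equalled those of GENCODE M21 transcripts on GRCm38 for 984 of 984 members with a sequence. Coordinates are 1-based. No unlabelled library was used, so no background was subtracted.

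Of 86993 deposited lines, 74385 were different intervals of 21177 genes; each gene was taken at its interval of highest mean CPM. Rates in percent plus 0.1 were log2 transformed for genes above 0 in at least 12 of 16 libraries, so fold changes understate those of low rates. Loss of label (log2 rate on hours, 6 residual df), decay rate difference (genotype by hours with time point as a factor, 6 df) and level difference (7 df) were fitted over all 7411 genes with limma 3.58.1 (R 4.3.3), moderated with a trend, on library-median-centred values for the last 2, with Benjamini-Hochberg adjustment at 0.05. With 1 library per genotype and time point, p-values measure scatter between time points. Half-lives are -1 divided by the slope. The fits were tried on simulated data with differences added to 100 genes per size. The decay test recovered 47 of 100 at 0.2 log2 per h and 69 of 100 at 0.4. The level test recovered 52 of 100 at a log2 difference of 2 and 85 of 100 at 4. Genes were named by rule: the 5 longest and 5 most abundant members; the 5 shortest and longest half-lives per genotype among those that fell; up to 5 per direction of each difference, filled by smallest p; the 3 most abundant of each role list; and 2 on each side of both limits. Predicted genes were left out, and some genes that the rule names are not reported here. Summaries used pandas 2.3.3, numpy 2.4.6 and scipy 1.17.1. Alternatives covered the pseudocount, the filter, time points, the window, centring, the variance model and the choice of interval.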

Additional observations from a re-analysis of the deposited data

Results flagged for a closer look

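Nptn had a decay rate difference of 0.167 log2 per h (YBX1-/- minus WT), the only very long interval past the limma threshold in the test of a difference between the genotypes. Its call was lost in 13 of 20 alternatives, and its interval overlaps an exon of Rec114 on the opposite strand. It was at 0% in WT at 24 h and at 1.43% in YBX1-/-, and whether this zero is no label or no reads was not tested.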

How the results depend on the processing

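No paired analysis was possible because each genotype and time point has 1 library and no replicate number; the time point factor serves as the block in the decay and level differences. The share of very long intervals whose label fell moved by less than 1.5 times in all 22 alternatives for each genotype, between 86.8% and 98.8% in YBX1-/- and between 88.5% and 99.4% in WT. No level difference passed in any alternative. The count called slower in YBX1-/-, 1 in the main analysis, was 0 with pseudocounts of 0.01 and 0.5, with filters of all 16, at least 8 and at least 1 library, without the YBX1-/- 0 h library, over 0 to 6 h, at 5000 bases or more and without intervals over coding sequence or another gene (chosen after seeing the data). It was 3 over 0 to 12 h and 2 with no centring. The count called faster, 0 in the main analysis, was 14 over 0 to 12 h and 1 with no time point factor. Leaving out each time point gave 0 to 11 slower and 0 to 10 faster, the highest being 11 and 10 without 12 h; 18 h left out gave 8 and 1. The median decay difference of members was 0.0023 in the main analysis, 0.0048 and 0.00023 with pseudocounts of 0.01 and 0.5, 0.0059, -0.00956 and -0.043 with the 3 filters, 0.0091 over 0 to 12 h, -0.019 over 0 to 6 h, 0.023 with no centring and 0.0056 at 5000 bases or more. The median level difference of members was 0.011, against -0.045 and 0.065 with filters of at least 8 and 1 library and -0.34 with no centring. Median slopes were -0.39 in YBX1-/- and -0.39 in WT over 0 to 12 h, -0.56 and -0.42 over 0 to 6 h, and between -0.30 and -0.24 in YBX1-/- and -0.33 and -0.26 in WT with a time point left out. Nptn, the only call, is not among the members at 5000 bases or more, without overlapping intervals or with the filter of all 16 libraries, so those 3 zeros follow from its removal. The cause of the other changes was not tested. Depth per library is unknown, so its effect on late rates could not be measured.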

Other observations

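Second intervals of Hnrnpd and Mocs2 had high T-to-C rates late in the chase, and both were chosen after their values were seen. No unlabelled library was used, so whether these late rates are label was not tested. The other interval of Hnrnpd, an RNA-binding protein of AU-rich element decay, spans 330 bases (chromosome 5, 99962283 to 99962612). Its rates were 38.7%, 48.4%, 44.3%, 42.4%, 39.3%, 29.0%, 27.2% and 34.5% from 0 to 24 h in YBX1-/-, against 50.9%, 63.2%, 57.1%, 41.5%, 42.6%, 39.4%, 37.1% and 35.6% in WT. The very long Hnrnpd interval had dropped to 2.07% in YBX1-/- and 2.34% in WT by 24 h. The other interval of Mocs2, which encodes molybdopterin synthase, has 151 bases and had 35.4% in YBX1-/- and 24.3% in WT at 24 h, against 0.885% and 1.55% in its very long interval. Its rates did not fall steadily. They were 9.46% in YBX1-/- and 8.8% in WT at 12 h, and 40.3% and 34.4% at 18 h.

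The members called over 0 to 12 h were also looked at after their values were seen. Pcif1, slower in YBX1-/- over that window, had rates of 16.7%, 23.8%, 19.0%, 7.21%, 8.33%, 4.0%, 5.0% and 4.44% in YBX1-/- and 29.5%, 38.8%, 26.5%, 3.21%, 4.03%, 0%, 0% and 4.44% in WT. Larp4, an RNA-binding protein of poly(A) tail maintenance and one of the 14 called faster, had 3.57% at 6 h and 0% at 12 h in YBX1-/-, against 10.4% and 4.56% in WT. At 18 h Larp4 was back at 2.54% in YBX1-/-, against 0.551% in WT.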
